A study of Mus musculus with 12 samples.

Results

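The comparison described here is that of type II alveolar epithelial cells lacking both Gnaq and Gna11 with cells lacking Gna11 alone. Its members were the 3 arrays of each of these genotypes, 6 of the 12 arrays of the series, and 18193 genes, each read through its brightest probe set, on average over the 12 arrays, of those annotated to 1 gene. The other 6 arrays hold cells lacking Gna12 (3 arrays) or both Gna12 and Gna13 (3 arrays). Cells of every group were taken from mouse lungs, kept for 7 days on collagen in medium for bronchial epithelium that held keratinocyte growth factor, and left untreated. All 6 arrays compared thus lack Gna11, and no wild-type cells enter the comparison. The labels write the double knockout as Gnaq/Ga11, read here as Gnaq/Gna11. They give no promoter, Cre line, age or sex of the mice, and leave unsaid whether arrays of the same group stem from different animals or cultures, so p-values measure only the spread between these arrays, which may be technical.

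Gnaq and Gna11 encode closely related alpha subunits of heterotrimeric G proteins. When a receptor for thrombin, lysophosphatidic acid, endothelin or another ligand activates them, they switch on phospholipase C beta, which releases inositol trisphosphate and diacylglycerol and so raises calcium and activates protein kinase C. Because the subunits overlap in function, removal of one often leaves the pathway working through the other. Type II alveolar cells make surfactant, renew the alveolar epithelium and metabolise inhaled chemicals, and in culture on stiff surfaces they drift towards a type I-like state.

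Gene levels are given below as the deposited log2 values, and differences as Gnaq/Gna11 minus Gna11 on that scale, with limma's standard error (SE). Unless stated otherwise, the 3 values given for a group are those of replicates 1, 2 and 3. A gene is said to have risen or fallen where limma's adjusted p, by Benjamini-Hochberg over the 18193 genes, was under 0.05. Lists of genes carry no test of their own. They are described by the number of members that rose or fell and by the median difference, beside the same over all genes. Over all genes 1.17% rose, 0.676% fell and the median difference was -0.03.

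The arrays differed in more than genotype. The mean of 24 pan-leukocyte genes was 8.53, 8.20 and 8.82 in the Gna11 arrays and 9.18, 9.17 and 9.21 in the Gnaq/Gna11 arrays. The difference between the 3' and 5' Gapdh control probe sets, which is large where RNA or its amplified copies are short, was 3.46 to 4.03 in Gna11 arrays and 3.01 to 3.26 in the double knockout, while the same measure for Actb overlapped (3.02 to 3.35 and 2.75 to 3.38). The Y-linked gene Eif2s3y was at 7.11, 3.56 and 7.00 in Gna11 arrays and at 3.54 or below in all 3 Gnaq/Gna11 arrays. On 1 of 3 probe sets the X-inactivation gene Xist was at 4.20, 8.40 and 3.99 against 8.25, 8.16 and 7.81. Its brightest probe set was at 5.77, 7.05 and 6.17 against 8.84, 7.29 and 9.31. By both genes Gna11 replicate 2 and all 3 Gnaq/Gna11 arrays were female in pattern and Gna11 replicates 1 and 3 male, so sex was not balanced. Gna11 replicate 2 had the lowest array weight of the 12, 0.489. A position code in the labels has one set of letters for all single and another for all double knockouts, so its letter and the second gene loss cannot be told apart. The pan-leukocyte mean and the Gapdh measure separate the groups completely, and their part in the results below was examined only by adding each to the model.

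**Figure D1:**
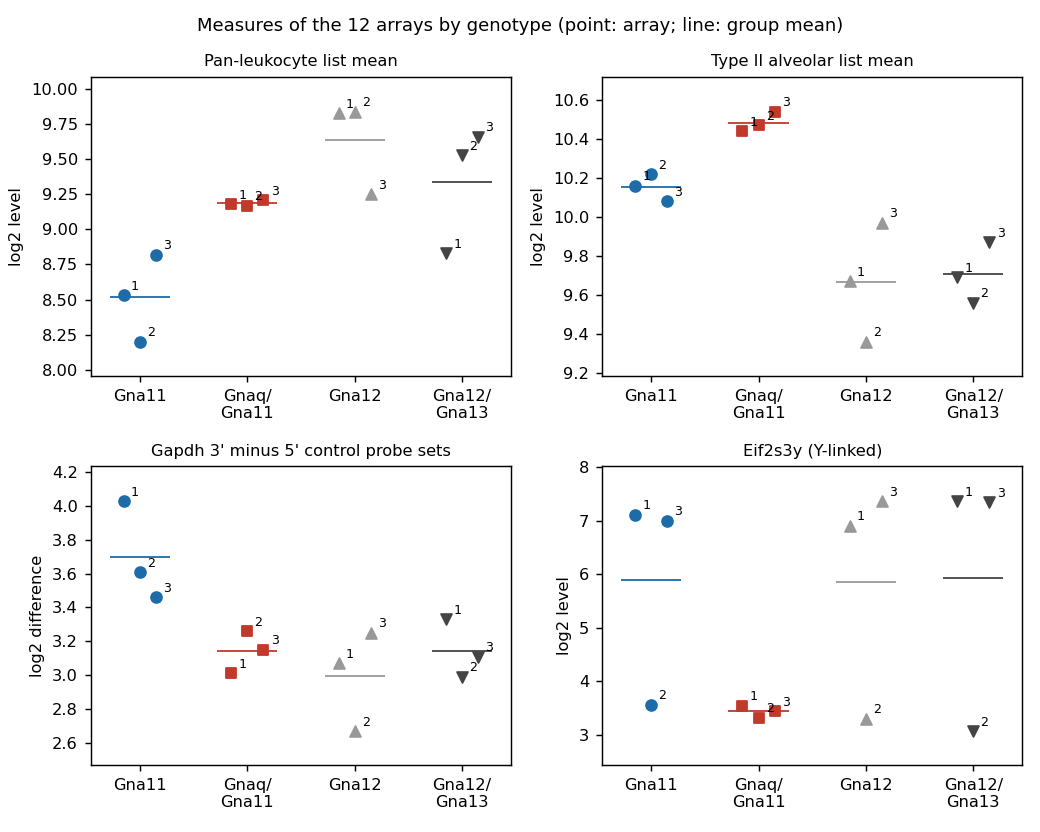
Measures of the 12 arrays, by group, with 1 point per array (numbered by replicate) and a line at each group mean: mean log2 level of the pan-leukocyte list, mean log2 level of the type II alveolar list, the Gapdh 3' minus 5' difference (log2) and the log2 level of the Y-linked gene Eif2s3y. The pan-leukocyte mean runs from 8.20 to 8.82 in Gna11 arrays and from 9.17 to 9.21 in the double knockout, and the Gapdh difference from 3.46 to 4.03 and from 3.01 to 3.26, so that these groups overlap in neither.

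The defining markers of the labelled cell type were high. Sftpc, the surfactant protein found in type II cells, was at 13.38, 13.37 and 13.35 in Gna11 and at 13.30, 13.24 and 13.24 in Gnaq/Gna11 arrays, and surfactant genes Sftpa1, Sftpb and Sftpd and the lamellar body transporter Abca3 were at 11.83 or above in all 6. The type I cell genes Ager and Aqp5 (12.46 or above) and the club cell gene Scgb1a1 (13.14 or above) also gave a strong signal in all 6. Leukocyte RNA was present as well, with Csf1r at 12.01 to 12.85 and Ptprc at 8.54 to 9.71 over the 6 arrays. These markers overlapped between the groups, but others did not. Cd53, Laptm5, Coro1a, Adgre1, Cd68 and C1qa were each higher in every Gnaq/Gna11 array than in any Gna11 array. Of these Adgre1 and Cd68 passed. C1qa was at 7.99, 4.86 and 6.46 in Gna11 and 10.19, 9.75 and 9.49 in Gnaq/Gna11 arrays. The endothelial genes Cdh5 and Pecam1 lay at 5.92 or below, close to 5.08, the median over all probe sets but the controls. The endothelial receptor Kdr, however, was at 8.90, 8.92 and 9.29 in Gna11 and 7.73, 7.69 and 8.04 in Gnaq/Gna11 arrays, and the mean of 17 endothelial markers at 7.45, 6.49 and 7.48 against 6.71, 6.53 and 6.83. In bulk samples of this kind, fewer cells of a type and less RNA per cell cannot be told apart.

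The targeted genes were read in every array first. One of 7 Gnaq probe sets was at 7.38, 7.31 and 8.20 in Gna11 arrays and at 7.07, 7.02 and 6.21 in Gnaq/Gna11 arrays. The groups did not overlap, with a difference of -0.87 (exact two-sided permutation p = 0.1, the smallest that 3 arrays against 3 allow, adjusted p = 0.45 over 9 probe sets). The 6 arrays lacking Gna12 were at 7.76 to 8.56 on it. The brightest Gnaq probe set differed by -0.19 (exact permutation p = 0.3) and 4 of the 7 had a positive difference of at most 0.28. For Gna11, which both groups lack, 1 of 2 probe sets was at 6.86 to 7.83 in the 6 arrays lacking it and at 7.98 to 8.57 in the other 6 (difference -1.11, exact permutation p = 0.00216, adjusted p = 0.0194), and the other probe set differed by 0.13 (exact permutation p = 0.831). On the latter, Gna11 arrays were at 7.57, 9.66 and 7.82, Gnaq/Gna11 arrays at 6.98, 6.86 and 8.16 and the 6 lacking Gna12 at 7.18 to 8.29, so that the library labelled Gna11 replicate 2 was the highest of all 12. The sources used here do not place the probe sets relative to the deletions, and one that lies elsewhere in the gene says nothing about the label.

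Between Gnaq/Gna11 and Gna11 cells, limma called 335 of 18193 genes (1.84%), 212 higher (1.17%) and 123 lower (0.676%) in the double knockout. The rises were the larger changes, with a median of 1.47 against -1.04 for the falls, and 161 rises but 65 falls were at least 2-fold. Over all genes the median difference was -0.03 and 45.4% were positive. The 2 groups did not overlap in any of the 335 genes, as in 19.7% of all genes. Calls rest on the same difference, so this is no separate result. Of the 335 genes, 248 were on none of the 51 gene lists used below. Those on a list included macrophage, dendritic cell, antigen presentation, interferon-stimulated and cathepsin genes among the rises. Among the falls they included enzymes that metabolise foreign and reactive compounds.

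The number of calls rested on single arrays and on the sample measures. Leaving out Gna11 replicate 1 or 2 left 142 or 166 calls, and leaving out Gnaq/Gna11 replicate 1, 2 or 3 left 221, 102 or 105, while 375 genes passed without Gna11 replicate 3. In total 62 genes passed in each of these 6 fits, 45 higher and 17 lower, and 52 of the 335 passed in none. With the pan-leukocyte mean in the model 25 genes passed, 24 of them among the 335, and with the Gapdh difference 3 passed (Ccl17, Gstm2 and AA467197). These 3 passed under every one of 17 alternatives.

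**Figure D2:**
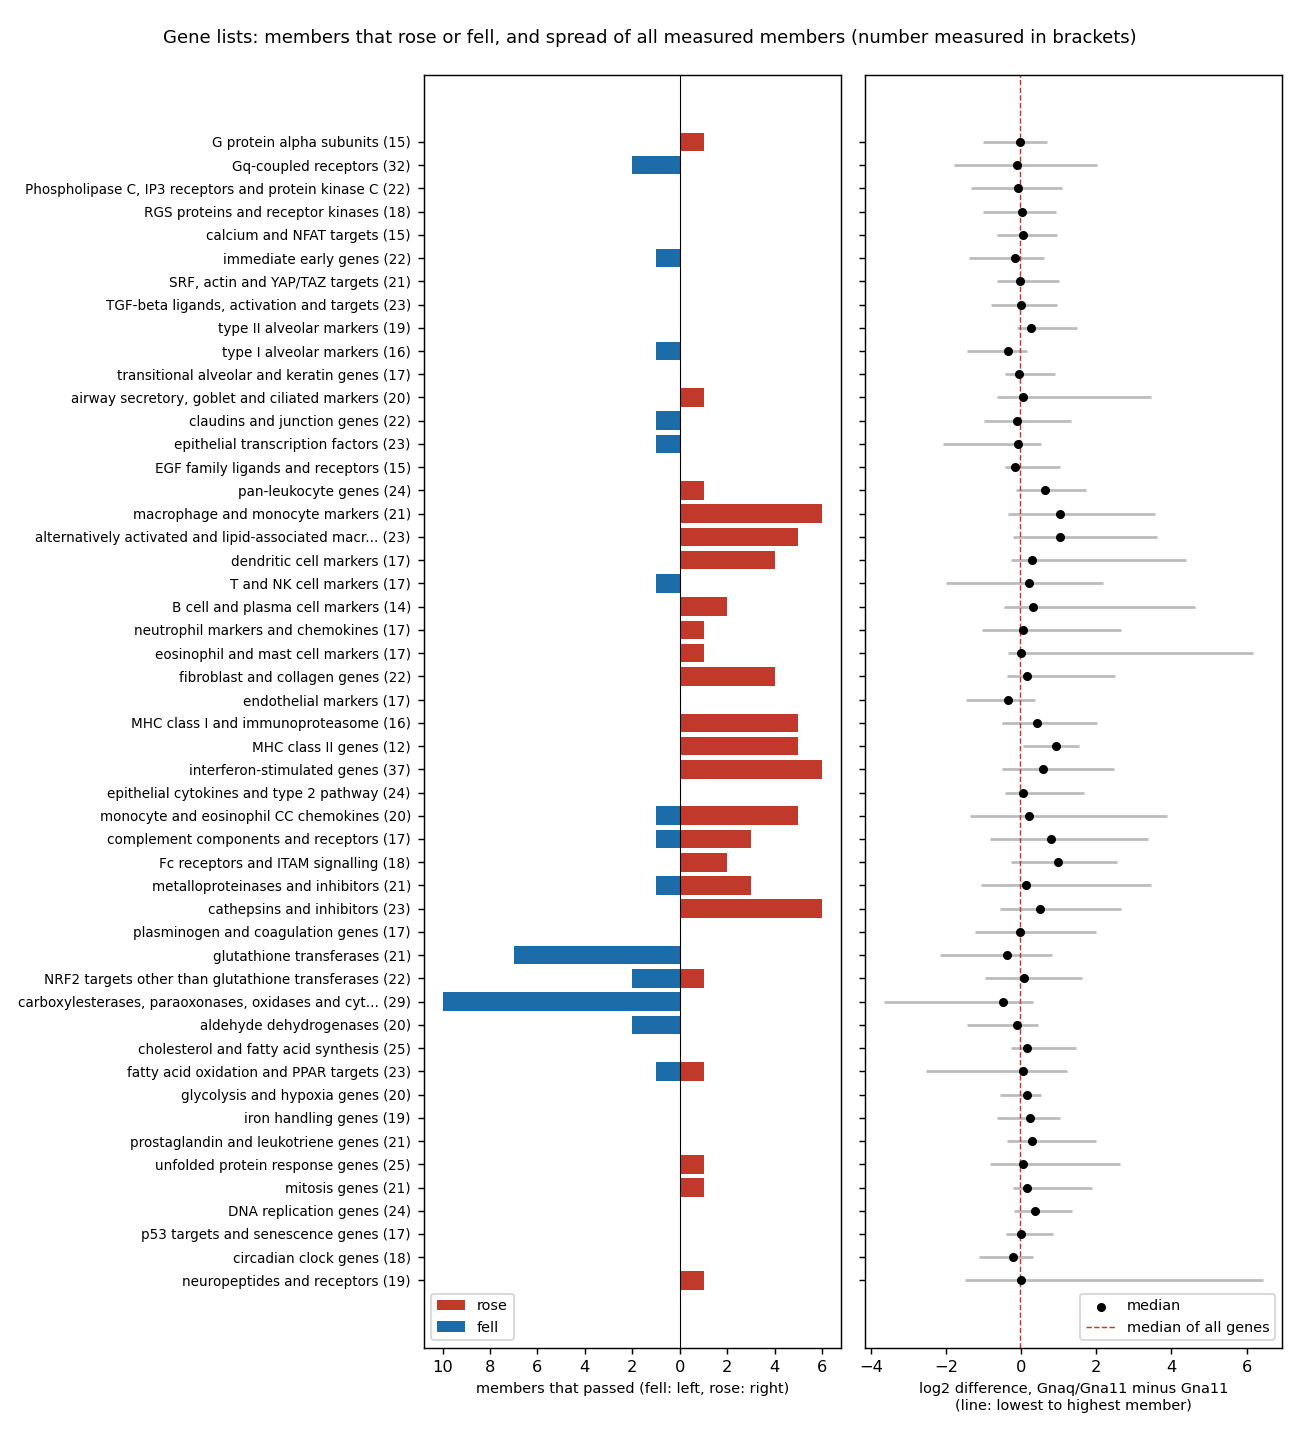
Gene lists compared between Gnaq/Gna11 and Gna11 cells, with the number of measured members in brackets. Left, the number of members that fell (blue) or rose (red) at an adjusted p under 0.05. Right, the median log2 difference (point) and the lowest to highest member (line), with the median of all genes, -0.03, as a dashed line. The lists of macrophage, interferon-stimulated and cathepsin genes each have 6 members that rose, and the list led by carboxylesterases has 10 that fell.

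Lists of the Gq/11 pathway itself held few calls. As 1.84% of all genes were called, lists this short would hold few or none, so such counts do not show an unmoved pathway. Among 15 G protein alpha subunit genes 1 rose and 0 fell (6.67% called, median -0.03). It was Gnai2, which encodes an inhibitory subunit abundant in leukocytes, at 10.00, 9.87 and 10.23 in Gna11 and 10.57, 10.73 and 10.90 in Gnaq/Gna11 arrays, a rise of 0.70 ± 0.129 (SE, adjusted p = 0.0253). The remaining members of the Gq family did not pass. Gna14 was at 9.07, 9.99 and 9.35 against 9.0, 7.99 and 8.78 (difference -0.88, adjusted p = 0.265), and Gna15 differed by 0.11 (adjusted p = 0.801). Both were singled out after their values were seen.

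Among 32 receptors that couple to Gq, 0 rose and 2 fell (6.25% called, against 1.84% of all genes), with a median of -0.10. Lpar3, a receptor for lysophosphatidic acid, was at 7.63, 8.01 and 7.90 in Gna11 and at 6.58, 5.87 and 6.22 in Gnaq/Gna11 arrays, a fall of 1.62 ± 0.252 (SE, 3.07-fold, adjusted p = 0.0132). All 6 arrays lacking Gna12 lay at 7.27 to 8.43, with the Gna11 arrays, and the call held in 5 of the 6 fits that leave out an array. Ptgfr, the receptor for prostaglandin F2 alpha, fell from 7.09, 6.71 and 5.34 to 4.78, 4.62 and 4.37 (difference -1.79 ± 0.341, adjusted p = 0.0287). Its other 4 probe sets, at 4.33 or below in all 6 arrays, differed by at most 0.25 in size, and the call held in 1 of the 6 fits. Here the arrays lacking Gna12 lay with the double knockout.

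Downstream of the receptors, 0 of 22 phospholipase C, inositol trisphosphate receptor and protein kinase C genes passed (median -0.08). Arhgef25, an exchange factor for RhoA that Gq activates, was at 8.95, 7.55 and 9.01 in Gna11 and 7.02, 6.96 and 7.51 in Gnaq/Gna11 arrays (difference -1.34 ± 0.485, adjusted p = 0.199), and the kinase gene Prkcb differed by 1.10 ± 0.383 (adjusted p = 0.186). None of 18 genes for RGS proteins, which speed the shut-off of G proteins, and receptor kinases passed either (median 0.03). Rgs1 differed by 0.93 ± 0.215 (adjusted p = 0.0584) and Rgs10 by 0.76 ± 0.213 (adjusted p = 0.109). Of 15 calcium and NFAT target genes 0 passed (median 0.05), as did 0 of 21 targets of SRF, actin and YAP/TAZ (median -0.04) and 0 of 23 TGF-beta genes (median 0.01).

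One of 22 immediate early genes, which cells switch on within minutes of receptor stimulation, fell and 0 rose (median -0.15). Nr4a1, an orphan nuclear receptor of this class, was at 7.97, 8.75 and 7.97 in Gna11 and at 6.70, 6.79 and 7.04 in Gnaq/Gna11 arrays, a fall of 1.39 ± 0.249 (SE, 2.61-fold, adjusted p = 0.0221). The call held in 3 of the 6 fits that leave out an array.

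Few epithelial identity genes passed. As 1.84% of all genes were called, lists this short would hold few or none, so such counts do not show an unchanged identity. Of 19 type II markers 0 passed, although 15 had a positive difference (median 0.27) and 10 (52.6%) had groups that did not overlap, against 19.7% of all genes. Sftpb was at 11.95, 12.04 and 12.03 in Gna11 and at 12.22, 12.30 and 12.44 in Gnaq/Gna11 arrays (difference 0.31 ± 0.0810, adjusted p = 0.0815). Il33, an alarmin made by alveolar epithelium, was at 10.35, 9.69 and 9.66 against 11.43, 11.17 and 11.52 (difference 1.48 ± 0.458, adjusted p = 0.139). The mean of the type II list ran from 10.08 to 10.22 in Gna11 cells and from 10.44 to 10.54 in the double knockout, above the 9.36 to 9.97 of the 6 arrays lacking Gna12.

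Of 16 type I markers 1 fell and 0 rose, with a median of -0.34. It was Timp3, an inhibitor of metalloproteinases bound to the matrix, which fell by 1.08 ± 0.227 (SE, adjusted p = 0.0398), from 10.70, 10.59 and 10.72 to 9.53, 9.78 and 9.46, and passed in 0 of the 6 fits that leave out an array. The list mean was 10.11, 8.81 and 10.15 in the Gna11 and 8.98, 9.32 and 9.33 in the Gnaq/Gna11 arrays, so Gna11 replicate 2 lay below all 3 double knockout arrays. The median of the list changed sign with the processing, from -0.93 to 0.38 over the 17 alternatives. None of 17 transitional and keratin genes passed (median -0.05).

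Single epithelial genes did move. Nfe2l3, a transcription factor related to NRF2, was at 8.57, 8.08 and 6.97 in Gna11 and 5.81, 5.70 and 5.87 in Gnaq/Gna11 arrays, a fall of 2.08 ± 0.404 (SE, adjusted p = 0.0303), and a second probe set differed by -1.99. It was the only one of 23 epithelial transcription factors to pass (median -0.08). Of 22 claudin and junction genes Cldn8 fell, by 0.36 ± 0.0762 (SE, adjusted p = 0.0398), at levels of 3.22 or below where an array carries little signal. None of 15 EGF family genes passed (median -0.15).

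Among the gene lists, those of detoxifying enzymes held the most falls. Of 29 carboxylesterase, paraoxonase, oxidase and cytochrome P450 genes 10 fell and 0 rose, where 0.676% of all genes fell, with a median of -0.49 against -0.03. The list was chosen with earlier results of these data known, so its direction is not independent evidence. The median stayed between -0.90 and -0.36 over the 17 alternatives, and 0 to 11 members passed.

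Pon1, a lactonase and esterase that hydrolyses oxidised lipids and organophosphates, was at 10.98, 11.29 and 11.18 in Gna11 arrays and at 9.03, 9.24 and 8.86 in Gnaq/Gna11 arrays. All 6 arrays lacking Gna12 were at 10.65 or above, so that the double knockout stood below each of the other 9 arrays. The fall was 4.31-fold (limma difference -2.11 ± 0.195, adjusted p = 0.00132). Fmo2, the main flavin monooxygenase of lung, which oxidises sulfur and nitrogen compounds, was at 8.59, 9.0 and 8.96 against 7.12, 6.44 and 6.93, a fall of 2.02 ± 0.227 (SE, adjusted p = 0.00297). Of its 4 other probe sets all differed downwards, by -2.49 to -0.11. Aox3, an aldehyde oxidase, was at 8.22, 8.17 and 8.20 against 6.17, 6.36 and 6.41 (difference -1.88 ± 0.193, adjusted p = 0.0016). These 3 genes passed in each of the 6 fits that leave out an array.

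Ces1g, a carboxylesterase that cleaves esters of drugs and lipids, had the deepest fall among the named genes. It was at 9.89, 8.05 and 9.43 in Gna11 and 5.48, 5.92 and 5.03 in Gnaq/Gna11 arrays, a difference of -3.65 ± 0.592 (SE, 12.6-fold, adjusted p = 0.0157). Unlike Pon1 it varied in the remaining groups, at 7.07 to 8.14 without Gna12 and 8.36 to 10.62 without Gna12 and Gna13. Ephx1, the microsomal epoxide hydrolase, fell by a smaller but even amount, from 10.92, 11.06 and 11.01 to 10.00, 10.30 and 10.14 (difference -0.85 ± 0.115, adjusted p = 0.0072).

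Glutathione transferases, which couple glutathione to electrophiles, were also among the falls. Of 21 members 7 fell and 0 rose, where 0.676% of all genes fell (median -0.37). Over the alternatives the median ran from -0.47 to -0.27, and 1 to 8 members passed. Gstm2 was at 11.29, 11.54 and 11.31 in Gna11 and 10.12, 9.90 and 10.18 in Gnaq/Gna11 arrays, with the 6 arrays lacking Gna12 at 11.07 to 11.51. Its fall of 1.31 ± 0.117 (SE, 2.48-fold, adjusted p = 0.00122) passed under all 17 alternatives. Gsta2, of the alpha class, was at 8.17, 7.89 and 8.21 against 6.78, 6.73 and 6.64 (difference -1.37 ± 0.243, adjusted p = 0.0213). Gstm3 fell by 1.51 ± 0.288 (SE, adjusted p = 0.0286) and Gsta4, which acts on lipid aldehydes, by 0.66 ± 0.132 (SE, adjusted p = 0.0346). Transferases of a class share sequence, and cross-hybridisation between them was not examined.

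**Figure D3:**
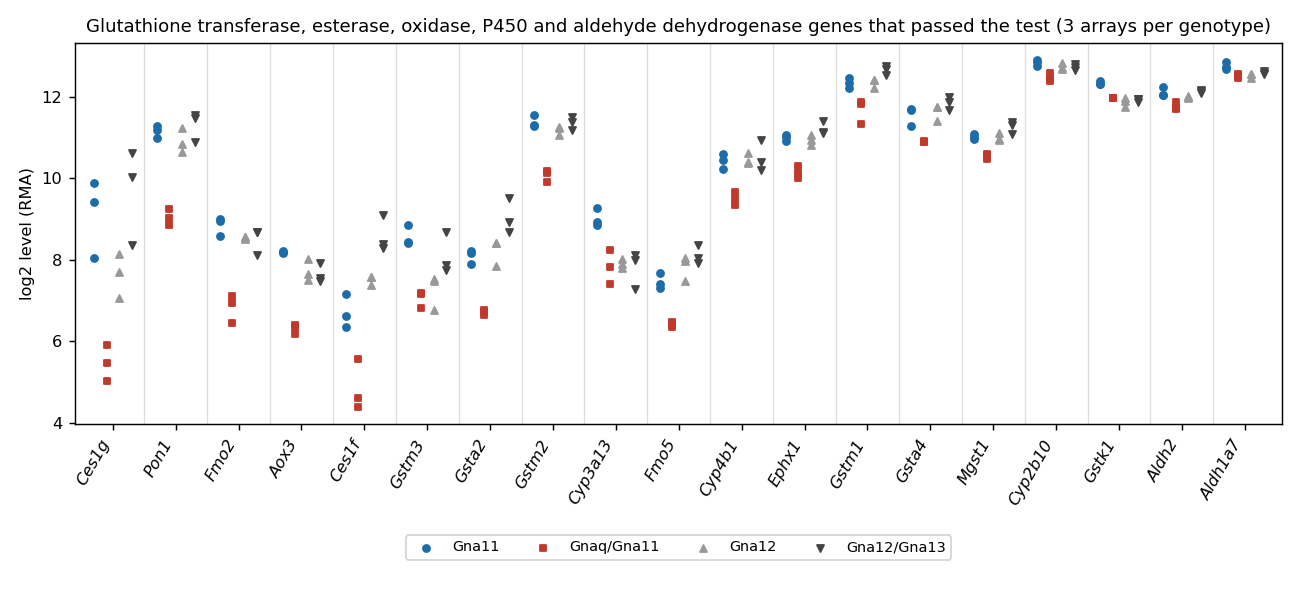
Log2 levels of the glutathione transferase, esterase, oxidase, P450 and aldehyde dehydrogenase genes that passed, with 1 point for each of the 12 arrays, coloured by genotype. In Pon1 the 3 Gnaq/Gna11 arrays lie at 8.86 to 9.24 and the other 9 at 10.65 or above, and in Gstm2 at 9.90 to 10.18 and at 11.07 or above.

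The fall did not extend to all targets of NRF2, the regulator of many of these enzymes. Of 22 NRF2 targets outside the transferases 1 rose and 2 fell, with a median of 0.07. Akr1b8, an aldo-keto reductase, rose from 7.07, 6.90 and 7.10 to 8.82, 8.45 and 8.71 (difference 1.63 ± 0.219, adjusted p = 0.00719), with all 6 arrays lacking Gna12 at 8.70 or above. Gpx2, a glutathione peroxidase of epithelia, fell by 0.95 ± 0.191 (SE, adjusted p = 0.0356) beside Ephx1. Of 20 aldehyde dehydrogenases 2 fell by small amounts, Aldh2 by 0.33 ± 0.0672 (SE, adjusted p = 0.0373) and Aldh1a7 by 0.24 ± 0.0518 (SE, adjusted p = 0.0442), and the median was -0.12.

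Other falls that held in each of the 6 fits that leave out an array came from genes of mixed function. Rbp4, the retinol carrier, was at 11.97, 12.21 and 11.87 in Gna11 and 10.77, 10.84 and 10.82 in Gnaq/Gna11 arrays, a fall of 1.21 ± 0.161 (SE, adjusted p = 0.00719). Kcnk2, a mechanosensitive potassium channel, fell from 5.61, 5.64 and 5.82 to 4.45, 4.03 and 4.59 (difference -1.34 ± 0.202, adjusted p = 0.0108), and its levels are low. Fgfbp1, which releases FGFs from the matrix, fell by 1.14 ± 0.157 (SE, adjusted p = 0.00735), and Krtap17-1, annotated as a keratin-associated protein, by 1.46 ± 0.147 (SE, adjusted p = 0.0016). Phf21a and Smg1 fell by 1.99 and 1.38 on the probe set used, while their other probe sets differed by -0.44 to 0.05 and by -0.70 to -0.17.

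Among the larger falls that lost their call without 1 or more arrays were a lipid carrier and surface proteins. Fabp1, a fatty acid binding protein, was at 8.17, 7.64 and 9.46 in Gna11 and 5.0, 6.06 and 6.62 in Gnaq/Gna11 arrays, a fall of 2.53 ± 0.485 (SE, adjusted p = 0.0292), with the arrays lacking Gna12 at 9.23 or above. The transmembrane collagen Col23a1 fell by 2.28 ± 0.408 (SE, adjusted p = 0.0219), and its other 2 probe sets differed by -2.07 and -1.15. Efnb2, a membrane-bound ligand of Eph receptors, fell by 1.92 ± 0.332 (SE, adjusted p = 0.0197) from 10.18, 10.11 and 9.89 to 9.03, 7.49 and 7.92. The secreted lipid-mobilising protein Azgp1 fell by 1.98 ± 0.317 (SE, adjusted p = 0.0152), and the GABA transporter Slc6a13 by 2.24 ± 0.452 (SE, adjusted p = 0.036). Dzank1, Hsd17b14, Bms1 and Atxn7l1 fell by 1.92 to 2.01, and for Bms1 and Atxn7l1 other probe sets differed by 0.14 and by -0.51 to 0.76.

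**Figure D4:**
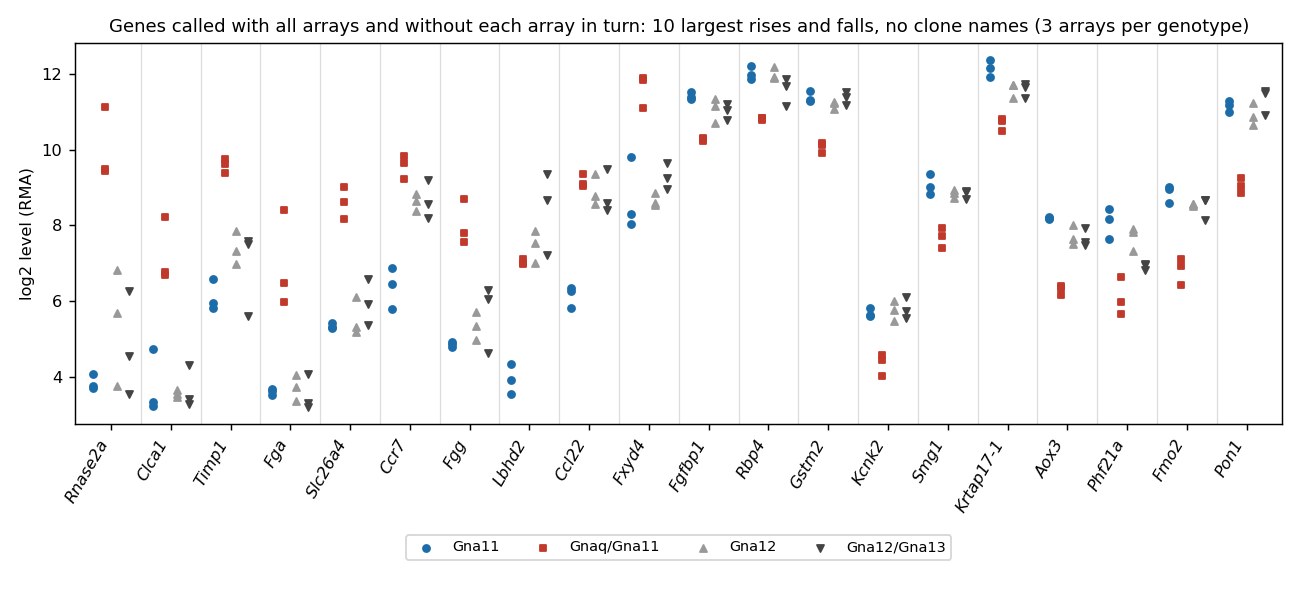
The 10 largest rises and 10 largest falls, genes with clone names left out, among genes that passed with all arrays and in each of the 6 fits leaving out 1 array, as log2 levels with 1 point per array in each of the 4 genotypes. Only genes whose Gna11 and Gnaq/Gna11 arrays do not overlap could enter, so the lack of overlap in these 20 is no result. Of the genes shown, Rnase2a has the largest rise, 6.16, and Pon1 the largest fall, -2.11.

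Slc26a4, Clca1 and Fxyd4, all among the rises that held in each fit leaving out an array, stood higher in the Gnaq/Gna11 arrays than in each of the other 9. Slc26a4, the anion exchanger pendrin of airway epithelium, was at 5.30, 5.32 and 5.43 in Gna11 and 8.17, 9.02 and 8.61 in Gnaq/Gna11 arrays, and at 5.19 to 6.59 in the 6 arrays lacking Gna12. It rose 9.51-fold (difference 3.25 ± 0.335, adjusted p = 0.0016). Clca1, a secreted protein of goblet cells, was at 3.33, 4.74 and 3.23 against 6.69, 6.78 and 8.23, with the arrays lacking Gna12 at 3.28 to 4.33 (difference 3.47 ± 0.470, adjusted p = 0.0072). It was the 1 of 20 airway secretory, goblet and ciliated markers that passed (median 0.04). Fxyd4, a regulator of the sodium pump, rose from 8.31, 9.81 and 8.04 to 11.09, 11.83 and 11.89 (difference 2.88 ± 0.401, adjusted p = 0.00769). For Slc26a4, Clca1 and Fxyd4 the test of the difference from the Gna12 pair gave adjusted p = 0.0569, 0.0926 and 0.162, so none is shown to be particular to the loss of Gnaq.

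Of the 3 fibrinogen chains, 2 rose. Fga was at 3.68, 3.52 and 3.62 in Gna11 and 6.47, 8.41 and 5.98 in Gnaq/Gna11 arrays, and Fgg at 4.80, 4.92 and 4.87 against 7.56, 8.70 and 7.79. Both were thus near the low end of the scale in Gna11 cells and higher in each double knockout array, with rises of 3.34 ± 0.494 (SE, adjusted p = 0.00977) and 3.16 ± 0.413 (SE, adjusted p = 0.00685). The remaining chain, Fgb, singled out after its values were seen, was at 4.98 to 5.28 and 5.03 to 5.15 (difference 0.03, adjusted p = 0.961). Among the 17 other plasminogen and coagulation genes of the list 0 passed (median -0.02). Kng1, kininogen, and Proz, the anticoagulant protein Z, are not on that list and were singled out after their values were seen. Kng1 was at 5.46, 5.80 and 5.27 in Gna11 and 7.43, 8.65 and 8.08 in Gnaq/Gna11 arrays (difference 2.54 ± 0.272, adjusted p = 0.00209), and Proz rose by 1.79 ± 0.255 (SE, adjusted p = 0.00837).

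Timp1, a secreted inhibitor of metalloproteinases, was at 5.81, 5.96 and 6.59 in Gna11 and 9.76, 9.38 and 9.61 in Gnaq/Gna11 arrays, an 11.0-fold rise (difference 3.46 ± 0.465, adjusted p = 0.00719). The 6 arrays lacking Gna12 lay at 5.62 to 7.85. Npy, which encodes neuropeptide Y, was at 5.24, 5.93 and 5.18 against 11.98, 11.88 and 11.84 (difference 6.45 ± 1.02, adjusted p = 0.0143). It varied most among the Gna12/Gna13 arrays, at 5.63, 11.27 and 9.13, so a high level was not confined to the double knockout of Gnaq and Gna11. It was the 1 of 19 neuropeptide and receptor genes that passed.

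Rnase2a, of the eosinophil-associated ribonucleases that macrophages also make, was at 4.09, 3.77 and 3.72 in Gna11 and 9.44, 9.49 and 11.11 in Gnaq/Gna11 arrays. The rise was 71.4-fold (difference 6.16 ± 0.799, adjusted p = 0.00685), and the arrays lacking Gna12 ran from 3.54 to 6.83. The Gna11 values lay under the median of 5.08, where an array carries little signal, so the fold is not precise. The other 16 of 17 eosinophil and mast cell markers did not pass, and the median of the list was 0.00.

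Macrophage genes were among the rises. Of 21 macrophage and monocyte markers 6 rose and 0 fell, where 1.17% of all genes rose, with a median of 1.03. The mean of the list was 8.22, 7.68 and 8.31 in Gna11 and 9.24, 9.18 and 9.22 in Gnaq/Gna11 arrays, while the arrays lacking Gna12 spread from 8.49 to 9.63. The pan-leukocyte list moved with it: differences were positive for 23 of 24 members (median 0.63), and the integrin Itgb2 was the 1 that rose (difference 1.51 ± 0.309, adjusted p = 0.0375). Over the 17 alternatives, 0 to 7 of the macrophage markers passed and their median ran from 0.18 to 1.51.

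Aif1, a calcium-binding protein of activated macrophages, was at 7.61, 6.24 and 5.60 in Gna11 and 10.32, 9.75 and 10.05 in Gnaq/Gna11 arrays (difference 3.56 ± 0.583, adjusted p = 0.0157). Adgre1, which encodes an adhesion receptor that marks mature macrophages, was at 6.65, 5.69 and 6.79 against 8.75, 7.93 and 8.08 (difference 1.88 ± 0.402, adjusted p = 0.0424). The scavenger receptor Msr1 rose by 1.85 ± 0.301 (SE, adjusted p = 0.0157). Adgre1 and Itgb2 passed in 1 of the 6 fits that leave out an array, and Aif1 and Msr1 in 5. Not every macrophage gene moved: Csf1r, the receptor for the macrophage growth factor, was at 12.81, 12.01 and 12.85 against 12.77, 12.56 and 12.73 (difference 0.13, adjusted p = 0.775), and the pan-leukocyte gene Ptprc differed by -0.14 (adjusted p = 0.864).

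Genes of alternatively activated and lipid-laden macrophages rose in 5 of 23 cases and fell in 0, where 1.17% of all genes rose (median 1.03). Gpnmb, a lysosomal glycoprotein of foamy macrophages, was at 5.03, 6.29 and 6.41 in Gna11 and 8.84, 9.54 and 9.39 in Gnaq/Gna11 arrays (difference 3.35 ± 0.588, adjusted p = 0.0204). Mmp12, the macrophage elastase, was at 2.98, 3.16 and 3.11 against 5.11, 6.20 and 4.92, a rise of 2.33 ± 0.336 (SE, adjusted p = 0.00844) that held in each of the 6 fits without an array. Gdf3, a TGF-beta family member, and the collagen-cleaving cathepsin Ctsk rose by 3.62 ± 0.802 (SE, adjusted p = 0.0477) and 2.65 ± 0.510 (SE, adjusted p = 0.0295). The lipid receptor Trem2 rose by 1.67 ± 0.339 (SE, adjusted p = 0.0362), while its other probe set differed by -0.12. In the 6 fits without an array Gpnmb passed in 3, Ctsk in 1, and Gdf3 and Trem2 in 0.

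A few phagocytic receptor and complement genes rose as well. Of 18 Fc receptor and ITAM signalling genes 2 rose (median 0.99), Trem2 and the inhibitory IgG receptor Fcgr2b, which went from 4.75, 3.82 and 5.69 to 7.69, 7.02 and 7.19 (difference 2.55 ± 0.461, adjusted p = 0.0228). Of 17 complement genes 3 rose and 1 fell, where 1.17% of all genes rose and 0.676% fell (median 0.80). C1qc and C1qb, chains of the first component that macrophages secrete, rose by 3.22 ± 0.680 (SE, adjusted p = 0.0398) and 1.79 ± 0.373 (SE, adjusted p = 0.0391), and the protease C1ra by 1.85 ± 0.302 (SE, adjusted p = 0.0157). Cd55, a surface inhibitor of complement, fell by 0.84 ± 0.183 (SE, adjusted p = 0.0454). In the 6 fits that leave out an array, C1qc and C1qb passed in 0, Fcgr2b and Cd55 in 1 and C1ra in 4.

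Of 23 cathepsin and inhibitor genes 6 rose and 0 fell, where 1.17% of all genes rose (median 0.50). Besides Ctsk these included the lysosomal protease Ctsd, at 11.52, 11.54 and 12.08 in Gna11 and 12.65, 12.62 and 12.59 in Gnaq/Gna11 arrays (difference 0.91 ± 0.173, adjusted p = 0.028), and the inhibitors Cstb (1.22 ± 0.222, adjusted p = 0.0242) and Slpi (0.66 ± 0.144, adjusted p = 0.0456). Ctsk, Ctsd, Cstb and Slpi each passed in 1 of the 6 fits that leave out an array. Of 21 metalloproteinases and inhibitors Timp1, Mmp12 and the collagenase Mmp8 rose and Timp3 fell (median 0.12). Mmp8, also on the list of 17 neutrophil genes as its 1 rise, was at 4.42, 4.0 and 4.32 against 7.16, 6.29 and 7.23 (difference 2.65 ± 0.475, adjusted p = 0.0221).

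Of 22 fibroblast and collagen genes 4 rose and 0 fell, where 1.17% of all genes rose, with a median of 0.16. Fibronectin, Fn1, which macrophages and epithelium make too, was at 5.65, 6.39 and 6.54 in Gna11 and 8.80, 8.80 and 8.45 in Gnaq/Gna11 arrays (difference 2.49 ± 0.411, adjusted p = 0.016), and the arrays lacking Gna12 lay at 7.29 to 8.88. The collagens that rose differed from it in that respect. Col1a1 was at 6.76, 6.57 and 6.37 against 8.39, 8.22 and 7.81, with the arrays lacking Gna12 at 6.60 or below (difference 1.57 ± 0.262, adjusted p = 0.0164). Col3a1 rose by 2.10 ± 0.335 (SE, adjusted p = 0.0152), with the arrays lacking Gna12 at 5.37 or below. Col6a2 rose by 1.45 ± 0.314 (SE, adjusted p = 0.0444), with those arrays at 9.55 or below and the Gnaq/Gna11 arrays at 10.36 or above. The fibroblast genes Pdgfra and Dcn did not pass (differences -0.37 and 0.18, adjusted p = 0.195 and 0.861), and 0 of 17 endothelial markers did (median -0.35).

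Dendritic cell genes gave the change with the smallest adjusted p. Ccl17, a chemokine that draws T cells bearing Ccr4, was at 10.64, 10.91 and 11.25 in Gna11 and 13.19, 13.11 and 13.18 in Gnaq/Gna11 arrays, a 4.68-fold rise (difference 2.23 ± 0.158, adjusted p = 0.000332). The 6 arrays lacking Gna12 were at 12.42 to 13.00, so that the Gna11 single knockout was the group that stood apart. The promoter of Ccl17 is shown for TTCNNNGAA, a spaced palindrome that STAT factors bind. The search covered both strands of the 250 bases before each RefSeq start, and no other spacing of TTC and GAA was searched. The palindrome occurred in 7.02% of 32851 windows and in 3 of 12 dendritic list members with a promoter. Windows count every promoter, while a member counts once where any of its promoters matched, so these shares differ in unit. The window around the match (RefSeq, GRCm38.p6, chr8:94810299-94810417, plus strand, match in capitals) reads as follows.
Ccl17: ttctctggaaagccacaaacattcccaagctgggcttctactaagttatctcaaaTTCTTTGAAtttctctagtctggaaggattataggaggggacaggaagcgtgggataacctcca
The match is a description of letters and was tested for no binding.

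Of 17 dendritic cell markers 4 rose and 0 fell, where 1.17% of all genes rose, with a median of 0.30. Ccl22, which shares the receptor of Ccl17, was at 5.83, 6.35 and 6.28 in Gna11 and 9.03, 9.09 and 9.36 in Gnaq/Gna11 arrays (difference 3.01 ± 0.301, adjusted p = 0.0016). Ccr7, the receptor that guides mature dendritic cells to lymph nodes, was at 5.79, 6.46 and 6.87 against 9.21, 9.65 and 9.82 (difference 3.19 ± 0.321, adjusted p = 0.0016). In both, the arrays lacking Gna12 were at 8.20 or above, nearer the double knockout. Fscn1, an actin bundler of mature dendritic cells, rose by 4.40 ± 0.828 (SE, adjusted p = 0.0275) on the probe set used, with Gna11 values of 7.56, 3.21 and 6.20, while its other 3 probe sets differed by 1.20, -0.14 and 0.31.

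Of 20 monocyte and eosinophil chemokine genes and receptors 5 rose and 1 fell, where 1.17% of all genes rose and 0.676% fell (median 0.22). Beside Ccl17, Ccl22 and Ccr7, the monocyte chemokine Ccl8 was at 8.58, 6.97 and 8.11 in Gna11 and at 11.66 or above in all 3 Gnaq/Gna11 arrays (difference 3.89 ± 0.637, adjusted p = 0.0157). Ccl6 rose by 0.75 ± 0.154 (SE, adjusted p = 0.0382). Ccl3, an inflammatory chemokine of macrophages, went the other way, from 8.28, 8.15 and 7.98 to 6.76, 6.80 and 6.73 (difference -1.37 ± 0.257, adjusted p = 0.0267), and the arrays lacking Gna12 lay above both groups at 8.40 to 9.44. Of 24 epithelial cytokine and type 2 pathway genes 0 passed (median 0.04).

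Lymphocyte genes moved singly. Ighm, the heavy chain of IgM, was at 8.91, 8.40 and 4.93 in Gna11 and 12.67, 12.29 and 11.21 in Gnaq/Gna11 arrays (difference 4.64 ± 0.879, adjusted p = 0.028), with all 6 arrays lacking Gna12 at 11.48 or above, and 7 of its 10 other probe sets differed by 2.76 to 3.52. Fcer2a, the low-affinity IgE receptor, was at 6.46, 7.11 and 5.88 against 8.72, 9.40 and 9.43 (difference 2.70 ± 0.314, adjusted p = 0.00332), and here the arrays lacking Gna12 stayed at 7.39 or below. These were the 2 rises among 14 B and plasma cell markers (median 0.32), while the B cell receptor component Cd79a differed by -0.46 (adjusted p = 0.736). The light chain segment Igkv15-103 rose by 3.27 ± 0.594 (SE, adjusted p = 0.0231). Of 17 T and NK cell markers 1 passed, the granzyme Gzmc, which fell by 2.00 ± 0.438 (SE, adjusted p = 0.0456).

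Antigen presentation genes of both classes were among the rises. Differences were positive for all 12 MHC class II genes (median 0.93), and 5 rose and 0 fell, where 1.17% of all genes rose. H2-DMa, which loads peptides onto class II molecules, was at 8.88, 9.24 and 8.92 in Gna11 and 10.60, 10.50 and 10.56 in Gnaq/Gna11 arrays (difference 1.54 ± 0.232, adjusted p = 0.0108). H2-Eb1, a class II beta chain, was at 10.99, 10.76 and 10.75 against 11.82, 12.01 and 12.04 (difference 1.12 ± 0.176, adjusted p = 0.0141). H2-DMb2, H2-Ab1 and the invariant chain Cd74 rose by 1.37 ± 0.258 (SE, adjusted p = 0.0275), 0.67 ± 0.105 (SE, adjusted p = 0.0132) and 0.53 ± 0.0753 (SE, adjusted p = 0.00844). Type II cells and leukocytes both express class II genes, and their shares were not separated. The list median ran from 0.56 to 0.98 over the alternatives, and 0 to 6 members passed.

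Of 16 class I and immunoproteasome genes 5 rose and 0 fell, where 1.17% of all genes rose (median 0.41). H2-K1, a classical class I heavy chain, was at 9.59, 10.09 and 10.51 in Gna11 and 11.57, 11.73 and 11.86 in Gnaq/Gna11 arrays (difference 1.66 ± 0.186, adjusted p = 0.00297), with the arrays lacking Gna12 at 11.39 or above. Class I genes are alike in sequence, and 2 of its 3 other probe sets differed by 1.84 and 1.00. The immunoproteasome subunit Psmb8 was at 9.72, 9.69 and 9.62 against 10.80, 11.51 and 11.42 (difference 1.57 ± 0.234, adjusted p = 0.0103). The light chain B2m rose by 1.5 ± 0.287 (SE, adjusted p = 0.0292) and the peptide transporter Tap1 by 1.39 ± 0.260 (SE, adjusted p = 0.0267). Other probe sets of Tap1, at lower levels, differed by -0.04, -0.11 and 0.03. The proteasome activator Psme1 rose by 0.30 ± 0.0602 (SE, adjusted p = 0.034).

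Interferon-stimulated genes rose in 6 of 37 cases and fell in 0, where 1.17% of all genes rose. They had 32 positive differences and a median of 0.58. Over the alternatives the median ran from 0.39 to 0.80, and 0 to 9 members passed. Oas1a, which makes the oligoadenylates that activate RNase L, was at 10.55, 10.97 and 10.30 in Gna11 and 12.04, 12.73 and 12.47 in Gnaq/Gna11 arrays (difference 1.81 ± 0.237, adjusted p = 0.00685). Zbp1, a sensor of Z-form nucleic acid, was at 5.05, 5.11 and 5.38 against 7.15, 7.40 and 7.5 (difference 2.18 ± 0.302, adjusted p = 0.00769). Its other probe set, at a similar level, differed by 0.06. Oas1a and Zbp1 passed in each of the 6 fits that leave out an array. Oasl1 rose by 1.71 ± 0.344 (SE, adjusted p = 0.0357) and Oas2 by 1.55 ± 0.276 (SE, adjusted p = 0.0213), and the antiviral genes Mx1 and Rsad2 made up the 6.

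Promoters of 3 genes that rose are shown for the interferon-stimulated response element: Oas1a and Rsad2 of the interferon list and B2m of the class I list. The element was searched as paired GAAA blocks with any 2 bases between, on both strands of the 250 bases before each start. It occurred in 2.98% of 32851 windows, in 15 of 27 interferon list members with a promoter, in 2 of the 3 that rose and had one, and in 1 of 12 class I members. As above, members count once and windows count every promoter, so these shares differ in unit. The windows come from RefSeq, GRCm38.p6: Oas1a at chr5:120907526-120907600 (minus strand), Rsad2 at chr12:26456508-26456627 (minus strand) and B2m at chr2:122147493-122147612 (plus strand). Capitals mark the matches, 2 overlapping ones in Oas1a and, in Rsad2, one on the opposite strand.
Oas1a: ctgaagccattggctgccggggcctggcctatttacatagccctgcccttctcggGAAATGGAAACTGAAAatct
Rsad2: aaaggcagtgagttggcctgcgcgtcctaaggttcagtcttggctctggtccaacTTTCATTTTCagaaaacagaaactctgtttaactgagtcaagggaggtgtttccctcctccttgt
B2m: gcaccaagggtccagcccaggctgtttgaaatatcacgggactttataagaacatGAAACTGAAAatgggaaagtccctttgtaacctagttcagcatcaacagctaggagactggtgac
Rsad2 was at 9.68, 9.63 and 9.54 in Gna11 and 10.38, 10.91 and 10.51 in Gnaq/Gna11 arrays (difference 0.98 ± 0.157, adjusted p = 0.0152), and B2m at 9.45, 8.41 and 9.01 against 10.31, 10.54 and 10.51. The antioxidant element, searched as TGACNNNGC in the same way, was in 10.2% of all windows and in 4 of 19 glutathione transferase genes with a promoter. Of the 6 transferases that fell and had a promoter, 1 matched.

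Calls were few in the other metabolic and growth lists, as the 1.84% called over all genes would also give. None of 25 cholesterol and fatty acid synthesis genes passed, with 20 positive differences and a median of 0.16, and Dhcr7, the last enzyme of cholesterol synthesis, was at 6.97, 6.85 and 7.23 in Gna11 and 8.30, 8.74 and 8.36 in Gnaq/Gna11 arrays (difference 1.45 ± 0.352, adjusted p = 0.0667). Of 23 fatty acid oxidation and PPAR target genes Angptl4, an inhibitor of lipoprotein lipase, rose by 1.08 ± 0.208 (SE, adjusted p = 0.0296) and Fabp1 fell (median 0.05). None of 20 glycolysis, 19 iron handling or 21 prostaglandin genes passed (medians 0.17, 0.24 and 0.28). The prostaglandin synthase Ptges was at 7.42, 8.61 and 6.62 against 9.51, 9.26 and 9.29 (difference 1.80 ± 0.441, adjusted p = 0.0682).

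Of 25 unfolded protein response genes 1 rose, the endoplasmic reticulum protein Sdf2l1, from 5.50, 4.59 and 5.02 to 7.33, 7.74 and 7.91 (difference 2.62 ± 0.445, adjusted p = 0.0179), and the median was 0.05. Of 21 mitosis genes Birc5, survivin, rose by 1.90 ± 0.391 (SE, adjusted p = 0.0378) and passed in 0 of the 6 fits that leave out an array (median 0.17). None of 24 DNA replication genes passed, with 18 positive differences and a median of 0.36. None of 17 p53 targets and 18 clock genes passed (medians 0.01 and -0.21).

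The position of the 6 arrays lacking Gna12 divided the called genes. Of the 212 rises, all 6 lay nearer the Gna11 mean in 66 and nearer the Gnaq/Gna11 mean in 47. Of the 123 falls the numbers were 47 and 23. In the first kind, with Pon1, Gstm2, Slc26a4, Clca1 and the fibrinogen chains, the double knockout stood apart from the rest. In the second kind, with Ccl17, Ccl22, Ccr7, Ighm, H2-K1, Akr1b8 and Lbhd2, the Gna11 single knockout stood apart. The position code carries another number in these 6 arrays than in the 6 lacking Gna11, which cannot be told apart from genotype.

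**Figure D5:**
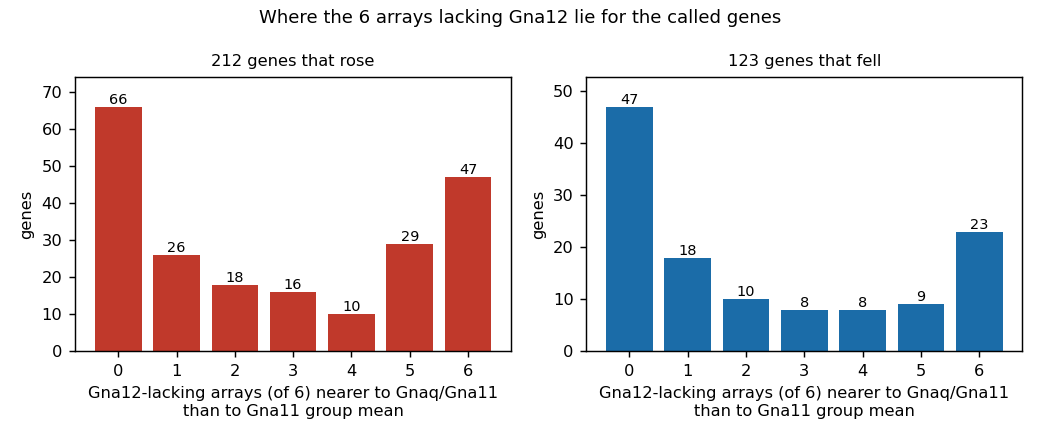
Number of called genes (y axis) by how many of the 6 arrays lacking Gna12 lay nearer to the Gnaq/Gna11 than to the Gna11 group mean (x axis, 0 to 6), for the 212 genes that rose (left) and the 123 that fell (right). Among these called genes the counts are highest at 0 and 6, with 66 and 47 rises and 47 and 23 falls. Counts over all genes are not shown.

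Whether the change depends on which pair of genes is lost was tested by setting the difference against that between Gna12/Gna13 and Gna12 cells. In that second pair limma called 0 genes (smallest adjusted p = 0.128, 820 genes at an unadjusted p under 0.05). The difference of differences was called for 13 genes (0.0715%), all 13 among the 335, and 1967 genes had an unadjusted p under 0.05. Of the 13, 5 were detoxification genes: Pon1 with -2.51 (adjusted p = 0.0114), Gstm2 with -1.49 (adjusted p = 0.0114), Aox3 with -1.82 (adjusted p = 0.0465), Ephx1 with -1.13 (adjusted p = 0.0413) and Ces1g with -5.68 (adjusted p = 0.0423). For Ces1g a difference of 2.03 in the Gna12 pair contributes to the value. Ccl17, Ccl22 and Ccr7 were the immune genes called, at 2.30, 3.08 and 3.17, with differences of -0.07, -0.07 and 0.03 in the Gna12 pair.

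Among the other 5, the progesterone receptor membrane component Pgrmc1 was at 10.76, 10.86 and 10.69 in Gna11 and 9.95, 9.69 and 9.85 in Gnaq/Gna11 arrays, a fall of 0.94 ± 0.124 (SE, adjusted p = 0.00719). The oxysterol-binding protein Osbpl6 fell by 0.97 ± 0.117 (SE, adjusted p = 0.00419). The remaining 3 were Krtap17-1 and the genes with clone names 2310034G01Rik, which fell by 0.65, and AA467197, which rose by 3.84 ± 0.300 (SE, adjusted p = 0.000451) from 4.99, 5.03 and 4.85 to 9.19, 8.64 and 8.56. These calls too rest on the model: with the Gapdh difference in it 0 were called and with the pan-leukocyte mean 1.

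Genes that lie beside Gnaq were read as well. Of the 100 measured genes nearest to Gnaq on chromosome 19, 50 on each side, 3 passed (3%, against 1.84% of all genes), and their median difference was -0.05. They were the macrophage membrane genes Ms4a7 and Ms4a6d, which rose by 2.87 ± 0.595 (SE, adjusted p = 0.0386) and 2.22 ± 0.459 (SE, adjusted p = 0.0383), and Aldh1a7. In the arrays lacking Gna12, which carry no deletion at Gnaq, Ms4a7 ran from 5.74 to 7.95 and Ms4a6d from 6.93 to 8.88.

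Probe sets other than the one used give a check of the calls within these arrays. Of the 335 genes 163 had more than 1 probe set, and of their 333 other probe sets 261 differed with the same sign (78.4%). Among the 172 of these at or above the median level the share was 85.5%.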

How the data were processed

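RNA of 12 samples was measured on Affymetrix mouse arrays. The deposited table holds 1 log2 value per probe set and array, computed by the authors with RMA according to the submitters' processing notes. The sources used here give neither the version of RMA nor an annotation, a genome build or the log base, which was read as 2. RMA corrects background, normalizes between arrays and summarises probes, and shrinks differences at low signal. No further normalization was applied. Of 45101 probe sets, 64 were controls, 34945 had 1 gene in the platform annotation, 932 several and 9160 none. Symbols were updated with the RefSeq gene table of GRCm38.p6 (34741 matched, 204 kept the platform symbol). Array medians ran from 5.03 to 5.11, and the number of arrays limits the precision.

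All 12 arrays entered 1 limma fit (version 3.58.1, R 4.3.3) with a mean for each group and eBayes moderation along an intensity trend, on 8 residual plus 3.19 prior degrees of freedom. Tests were two-sided, with Benjamini-Hochberg adjustment over 18193 genes. The code was tested on simulated data. The comparison, its 51 gene lists (1120 entries, 1022 measured) and the tests were chosen with earlier results of these data known. Genes named are the targeted genes, the 15 largest rises and falls (2 groups not overlapping, higher mean at or above the median, no clone name), the 10 largest that passed in each of the 6 fits leaving out an array, and up to 4 passing members per list, or up to 2 with the smallest p. Other names (Gna14, Gna15, Fgb, Trem2, Cd74, Psme1, Ccl6, Ccl3, Mx1, Rsad2, Csf1r, Ptprc, Osbpl6, Pgrmc1, AA467197, 2310034G01Rik, Kng1, Proz, Kdr and the Ms4a genes) complete small counts or were chosen after their values were seen. In total 17 alternatives were tried: another probe set rule, variance model, filter, set of arrays, array weights, normalizations, a replicate block, covariates and leaving out arrays.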

Additional observations from a re-analysis of the deposited data

Results flagged for a closer look

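The difference between Gnaq/Gna11 and Gna11 cells was itself different from that between Gna12/Gna13 and Gna12 cells, by limma's test of the difference of differences, for 13 genes. Lower by this measure were the esterases Ces1g (-5.68) and Pon1 (-2.51), the oxidase Aox3 (-1.82), the glutathione transferase Gstm2 (-1.49), Krtap17-1 (-1.46), the oxysterol-binding protein Osbpl6 (-1.21), Pgrmc1 (-1.19), the epoxide hydrolase Ephx1 (-1.13) and the clone-named 2310034G01Rik (-0.98). Higher were the chemokines Ccl17 (2.30) and Ccl22 (3.08), the receptor Ccr7 (3.17) and the clone-named AA467197 (3.51). Their adjusted p-values are in the account of the comparison, and the position code and the Gapdh and pan-leukocyte measures differ between the groups as described there.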

How the results depend on the processing

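Among the named genes, none that was called changed sign under an alternative. The 335 calls (212 higher, 123 lower) became 139 (109 and 30) with only the 6 arrays compared, 174 (119 and 55) with array weights, 25 (20 and 5) with the pan-leukocyte mean and 3 (2 and 1) with the Gapdh difference as a covariate, and ran from 102 to 375 (73 to 247 and 29 to 128) when 1 array was left out. Counts stayed within 1.5 times under the other alternatives, from 237 when Eif2s3y entered the model (159 shared with the 335) to 394 after a filter at the median level. With the replicate number as a block 309 were called, 250 of them among the 335. Whether the numbers pair the samples is not known. Deviations of same-numbered Gna11 and Gnaq/Gna11 arrays correlated at 0.00943 to 0.0597, which with 3 arrays per group cannot decide it. Eif2s3y was at 3.56 or below in replicate 2 of every group. In replicates 1 and 3 it was at 6.91 or above in every group but Gnaq/Gna11. The 13 calls of the difference of differences, most of whose alternatives were added after seeing the data, became 35 with the mean of the probe sets, 22 without the intensity trend, 36 after the filter at the median level, 28 with array weights, 23 after quantile normalization, 1 with the pan-leukocyte mean, 0 with the Gapdh difference, 16 with the replicate block and 4 to 40 without 1 array. The cause of these changes was not tested. Low levels, near the median of 5.08 or under it, limit what Rnase2a, Clca1, Fga, Fgg, Mmp12, Kcnk2, Cldn8 and Ptgfr can show. No measure of detection was used.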
